A study of Homo sapiens with 2 samples.

Results

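The genes described here are the aryl hydrocarbon receptor pathway of xenobiotic sensing: the receptor AHR, its DNA-binding partners ARNT and ARNT2, its feedback regulators AHRR and TIPARP, and the cytochrome P450 genes CYP1A1, CYP1A2 and CYP1B1. Members were chosen by name, as every probe that names only 1 of these 8 genes, which gave 10 probes for 8 of the 19412 genes on the array. The set was drawn up because the CYP1A2 probe had been seen to read brightly, so the intensities of these probes and the difference between the lines are given as a description and support nothing further. Total RNA was labelled with Cy5 and read on single-colour microarrays from A375SM, an established and highly metastatic human melanoma line. One derivative carried a lentiviral short hairpin RNA (shRNA) against NFAT1, the product of NFATC2 and a transcription factor switched on by calcium and calcineurin. It is called the KD-labelled line here, after the label of the array columns. The control derivative, the NT-labelled line, carried a lentiviral non-targeting shRNA. Both lines were grown in the same serum-containing medium, and each is a population sorted for the top 50% of GFP signal, not a clone. The labels name no treatment with an AHR ligand for either line. The study states 3 biological replicates of each line, but the table used here holds 1 combined intensity for each probe in each line. Values are written as intensity ± the authors' error, whose kind is not stated, and the spread between replicates is not known.

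AHR is a ligand-activated transcription factor of the bHLH-PAS family. It waits in the cytosol in a complex with HSP90 and its co-chaperones, and after binding a planar aromatic ligand or a tryptophan metabolite it enters the nucleus, pairs with ARNT and binds DNA at sites with the core GCGTG. Classical targets are the CYP1 oxidases, which clear the ligand, together with AHRR, which competes for ARNT, and TIPARP, an ADP-ribosyltransferase that limits AHR activity. CYP1A2 is known mainly as a liver enzyme, whereas CYP1A1 and CYP1B1 are inducible in many tissues, the skin included. In melanocytes, ligands of AHR are known to alter pigmentation.

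CYP1A1 and CYP1A2 lie next to each other on chromosome 15, on opposite strands, with their starts facing each other. The RefSeq promoter windows of GRCh38.p14, each running from 250 bases before to 50 bases after a listed start, are shown for this neighbouring pair, whose probes both read higher in the KD-labelled line, and for TIPARP on chromosome 3, whose probe read lower. The windows are chr15:74725479-74725778 on the minus strand for CYP1A1, chr15:74748595-74748894 on the plus strand for CYP1A2 and chr3:156674340-156674639 on the plus strand for TIPARP, the first of its 3 listed starts. All are written 5′ to 3′ on the gene's own strand, and capitals mark each GCGTG or its reverse complement CACGC.
CYP1A1: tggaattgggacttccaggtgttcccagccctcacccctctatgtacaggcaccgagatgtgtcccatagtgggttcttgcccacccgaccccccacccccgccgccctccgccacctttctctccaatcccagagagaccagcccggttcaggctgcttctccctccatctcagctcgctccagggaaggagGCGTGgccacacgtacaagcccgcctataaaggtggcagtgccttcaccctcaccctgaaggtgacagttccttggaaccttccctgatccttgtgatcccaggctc
CYP1A2: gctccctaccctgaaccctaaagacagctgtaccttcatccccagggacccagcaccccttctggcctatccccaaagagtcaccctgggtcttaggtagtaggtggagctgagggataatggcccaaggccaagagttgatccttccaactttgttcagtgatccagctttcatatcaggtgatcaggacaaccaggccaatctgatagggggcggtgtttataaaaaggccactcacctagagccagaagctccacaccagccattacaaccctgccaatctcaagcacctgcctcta
TIPARP: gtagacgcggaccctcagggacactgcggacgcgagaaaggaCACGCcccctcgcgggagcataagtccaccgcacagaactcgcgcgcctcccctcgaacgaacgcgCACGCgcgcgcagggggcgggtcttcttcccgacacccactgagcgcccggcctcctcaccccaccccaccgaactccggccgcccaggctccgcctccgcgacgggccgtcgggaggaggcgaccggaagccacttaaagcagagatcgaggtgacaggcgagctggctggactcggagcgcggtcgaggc
The CYP1A1 window held 1 copy of the core, the CYP1A2 window 0 and the TIPARP window shown 2. At least 2 copies stood in 12.7% of all windows. The windows of the other TIPARP starts held 0 copies. Windows were found for 6 of the 8 genes, AHR, AHRR, ARNT, CYP1A1, CYP1A2 and TIPARP, and 5 of their 9 windows held the core, as did 36.5% of all 35116 windows of the same length. The longer form TNGCGTG, or CACGCNA on the other strand, stood in 1 of the 9 windows, that of the first AHRR start, and in 5.51% of all windows. Every longer form includes the core. These letters describe short windows only, and the known AHR sites of CYP1A1 lie mostly further upstream than the window shown.

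Before the pathway itself, the label of the line was checked. NFATC2, the hairpin's target, did not read lower in the KD-labelled line on its brighter probe, to which the authors' deposited table assigns a log2 ratio of 0.12 (95% interval -0.15 to 0.39). Its other probe was detected in neither line, at 41.6 in the KD-labelled and 57.8 in the NT-labelled line. The authors' deposited table gives that probe a log2 ratio of -0.23 (interval -1.06 to 0.60). Each direction here is therefore that between the lines as labelled. A probe counts as detected at a detection p-value under 0.01, which held for 33.9% of the probes naming 1 gene in the KD-labelled line and 32.3% in the NT-labelled line. The normalized intensities of the median gene with a ratio were 1.23-fold higher in the KD-labelled line, and the authors' log2 ratio is centred near 0. Of 11362 probes with a ratio, 7.02% passed a Benjamini-Hochberg adjusted p under 0.05 computed from the authors' deposited p-values, 3.24% higher and 3.78% lower. Of these calls 46.1% were higher. With p-values from the deposited errors in place of the authors', 93.9% of calls were higher for the plain quotient of the intensities and 38.1% for the quotient with its median removed.

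CYP1A2 and CYP1A1 rose in the KD-labelled line, and no probe of the pathway fell past the threshold. Of the 10 probes, 8 were detected in both lines and carried a ratio, covering 7 genes, and 2 passed, against 7.02% of all probes with a ratio. Since the genes were chosen with these values in view, nothing is read from that count. The interval from the deposited errors left out 0 for 4 of the 8 probes, CYP1A2, CYP1A1, AHRR and TIPARP, and for 19.8% of all probes. The median ratio of the 8 probes in the authors' deposited table was 0.02, where that of all probes was -0.01.

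CYP1A2 (Entrez gene 1544), which oxidises caffeine, aromatic amines and many drugs, read a normalized intensity of 8790 ± 908 in the KD-labelled line and 2822 ± 544 in the NT-labelled line. The ranges of 1 error on each side did not overlap, running from 7883 to 9698 and from 2278 to 3366. The authors' deposited table puts the log2 ratio of KD to NT at 1.36. That is a 2.57-fold rise, with a 95% interval of 1.67-fold to 3.94-fold propagated from both errors and an adjusted p of 0.0106 from the authors' deposited p-values. A ratio at least this high was given for 43 of the 11362 probes. The gene was measured by only 1 probe.

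CYP1A1 (Entrez gene 1543), the most inducible of the AHR target oxidases, read 875 ± 64.5 against 436.8 ± 57.2. These ranges did not overlap either. The authors' deposited table puts its log2 ratio at 0.68, a 1.60-fold rise (interval 1.19-fold to 2.15-fold), and the adjusted p was 0.00844. A ratio at least this high was given for 412 probes.

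For the third CYP1 oxidase no difference between the lines could be read. CYP1B1 (Entrez gene 1545, on chromosome 2), an oxidase of oestrogens and retinoids that AHR induces in many cells outside the liver, read 11 ± 4.49 in the KD-labelled line and 11.6 ± 4.61 in the NT-labelled line. It was detected in neither line and has no ratio in the authors' deposited table. A low level in either line was not detectable with this probe.

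**Figure D1:**
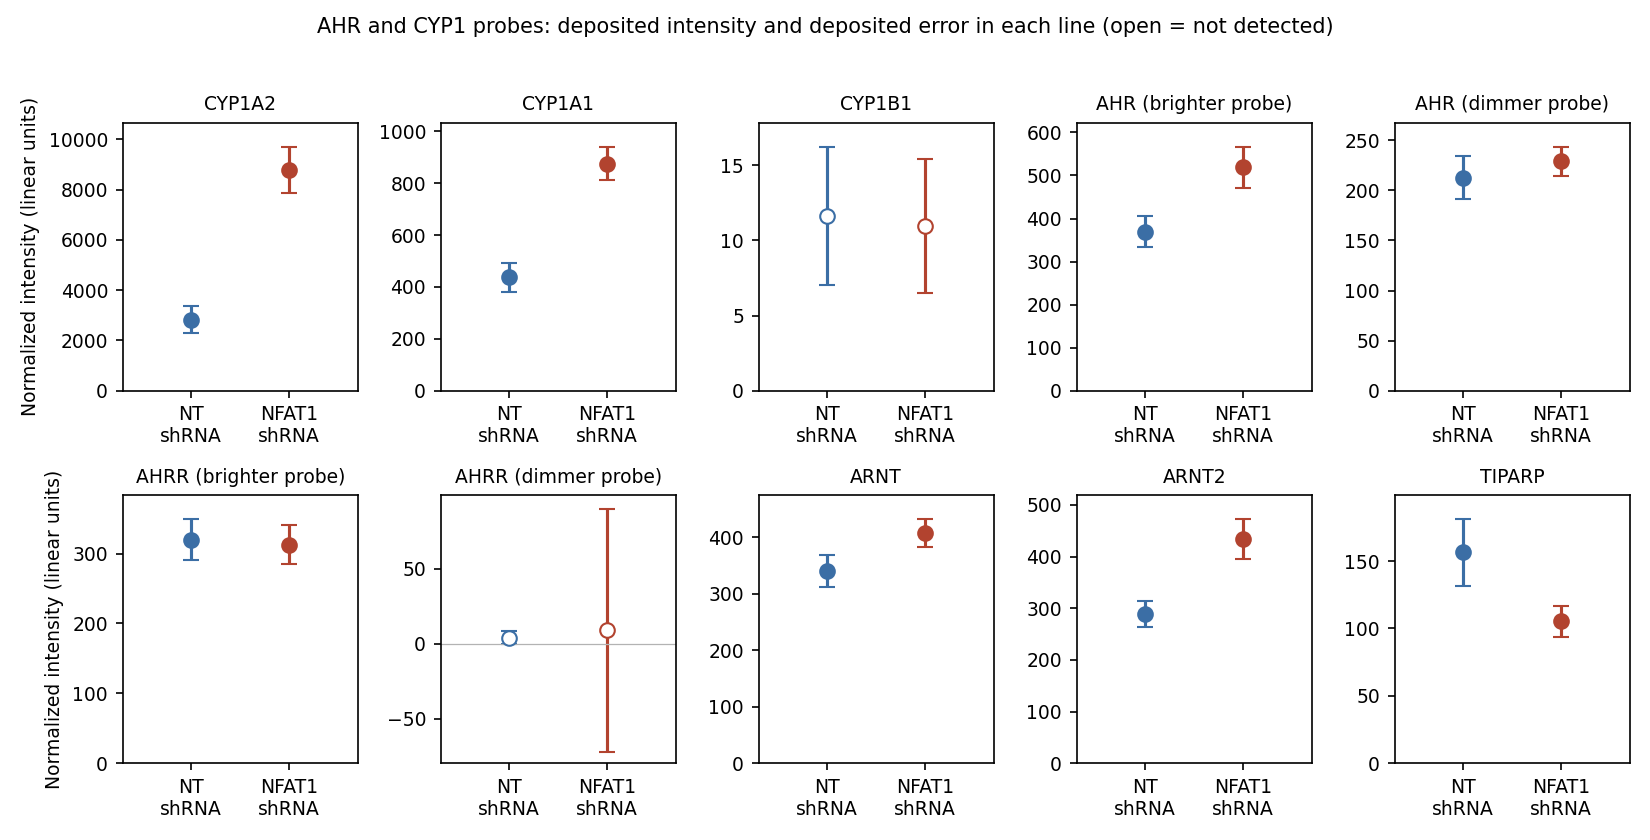
Normalized intensity (linear units, separate axis for each probe) of the 10 probes in the NT-labelled line (blue) and the KD-labelled line (red), with 1 deposited error as the bar and open symbols where the probe was not detected. CYP1A2 reads 2822 and 8790 and CYP1A1 436.8 and 875, TIPARP reads 156.4 and 105.5, and CYP1B1 and the dimmer AHRR probe were detected in neither line.

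The error of CYP1A2 was large for a bright probe. It was 10.3% of the signal in the KD-labelled line and 19.3% in the NT-labelled line. Among detected probes reading over 1000, the median error was 6.15% and 7.91% of the signal, and an error at least as large as that of CYP1A2 was seen for 3.91% of 2202 probes in the KD-labelled line and 1.74% of 1897 in the NT-labelled line. The standard error implied by the p-value of the authors' deposited table gave a wider interval for its log2 ratio, 0.60 to 2.12, than the 0.74 to 1.98 from the deposited errors. CYP1A1 was measured with errors of 7.37% and 13.1%.

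The rise of CYP1A2 exceeded that of CYP1A1 by 0.68 on the log2 scale, and the interval of this difference, -0.07 to 1.43, includes 0. How far the probes of these related genes read each other's transcripts was not tested, since probe sequences were not used here. Of the genes that flank the pair on chromosome 15, named after their values were seen, EDC3 beside CYP1A1 had a log2 ratio of -0.23 (interval -0.85 to 0.40) and CSK beside CYP1A2 one of 0.37 (interval -0.18 to 0.91) in the authors' deposited table. Neither passed the threshold.

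The feedback regulators had ratios below 0 in the authors' deposited table. TIPARP (Entrez gene 25976) read 105.5 ± 11.6 in the KD-labelled line and 156.4 ± 24.6 in the NT-labelled line. The ranges of 1 error did not overlap, and the NT-labelled line was the higher. The authors' deposited table puts the log2 ratio at -0.87 (interval -1.41 to -0.33), which is 1.83-fold in favour of the NT-labelled line. Its adjusted p from the authors' deposited p-values was 0.0518 over all probes, which misses the threshold, and 0.0493 over genes represented by their brightest probe, which meets it. A ratio at most this low was given for 151 probes.

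AHRR (Entrez gene 57491, on chromosome 5), the AHR repressor, had almost the same intensity in both lines on its brighter probe, 312.8 ± 27.5 in the KD-labelled line and 319.9 ± 28.9 in the NT-labelled line. After the centring, the authors' deposited table puts this at a log2 ratio of -0.39 (interval -0.74 to -0.03), with an adjusted p of 0.359. The wider interval implied by the p-value of that table, -0.82 to 0.05, includes 0. The other AHRR probe read 8.94 ± 81.4 and 4.22 ± 4.26, below detection in both lines.

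The receptor and its partners did not pass in either direction. AHR (Entrez gene 196, on chromosome 7) has 2 probes, and both were detected in both lines. The brighter read 518.5 ± 47.7 in the KD-labelled line and 369.8 ± 35.8 in the NT-labelled line, which the authors' deposited table puts at 0.14 (interval -0.24 to 0.52) on the log2 scale. The dimmer read 229 ± 14.3 and 212.7 ± 21.7, put by the authors' deposited table at -0.25 (interval -0.59 to 0.08). The probes thus differ in sign, and the interval of their difference of 0.40, -0.11 to 0.90, includes 0.

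ARNT (Entrez gene 405, on chromosome 1), the partner that AHR shares with the hypoxia-inducible factors, read 406.6 ± 24.6 against 340 ± 28.9 in the NT-labelled line. The authors' deposited table puts its log2 ratio at -0.09 (interval -0.39 to 0.20), and the adjusted p was 0.901. ARNT2 (Entrez gene 9915, also on chromosome 15), a close relative of ARNT best known from neurons, read 434 ± 37.9 against 288.5 ± 25.1. The authors' deposited table puts ARNT2 at 0.23 (interval -0.12 to 0.58), with an adjusted p of 0.486. The raw intensities of ARNT, ARNT2 and the brighter AHR probe were higher in the KD-labelled line by more than 1 error on each side. These intensities are not centred, and 53.2% of all probes with a ratio differed by that much in one direction or the other.

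**Figure D2:**
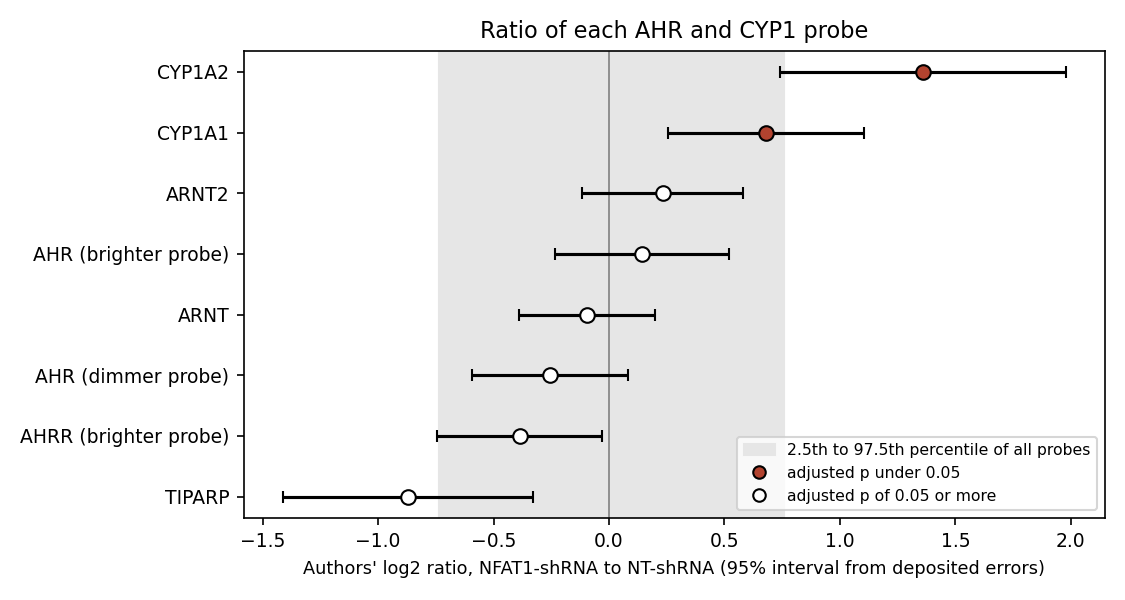
Log2 ratio of KD to NT from the authors' deposited table for the 8 probes with a ratio, with 95% intervals from the deposited errors, filled where the adjusted p is under 0.05. The grey band, -0.73 to 0.76, spans the middle 95% of all probes naming 1 gene. CYP1A2 at 1.36 lies above it and TIPARP at -0.87 below it.

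The genes were ordered by these ratios. A constant centring of the array cancels in a difference between probes. Between CYP1A2 and TIPARP it was 2.23 with the authors' ratio and 2.21 with the plain quotients. The authors' ratio is not a constant shift of the quotient, since its offset ran from -0.59 to -0.17 between the 5th and 95th percentiles of all probes. Among the 8 probes the offset ran from -0.36 for the dimmer AHR probe to -0.28 for CYP1A2. From the highest ratio to the lowest the order was CYP1A2, CYP1A1, ARNT2, the brighter AHR probe, ARNT, the dimmer AHR probe, AHRR and TIPARP. For no neighbouring pair in this order did the interval of the difference leave out 0. The 28 pairs reuse the same 8 probes, and the genes were chosen for these values. Their intervals are therefore description, and no p-value is attached to them. CYP1A2 stood above TIPARP by 2.23 on the log2 scale (interval 1.41 to 3.05) and above AHRR by 1.75 (interval 1.03 to 2.46). CYP1A1 stood above TIPARP by 1.55 (interval 0.86 to 2.24) and above AHRR by 1.07 (interval 0.51 to 1.62). CYP1A2 also stood above every probe of AHR, ARNT and ARNT2, with differences from 1.13 (interval 0.42 to 1.84) against ARNT2 to 1.61 (interval 0.91 to 2.32) against the dimmer AHR probe. For CYP1A1 the interval included 0 against ARNT2 (-0.10 to 1.00) and the brighter AHR probe (-0.03 to 1.11).

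**Figure D3:**
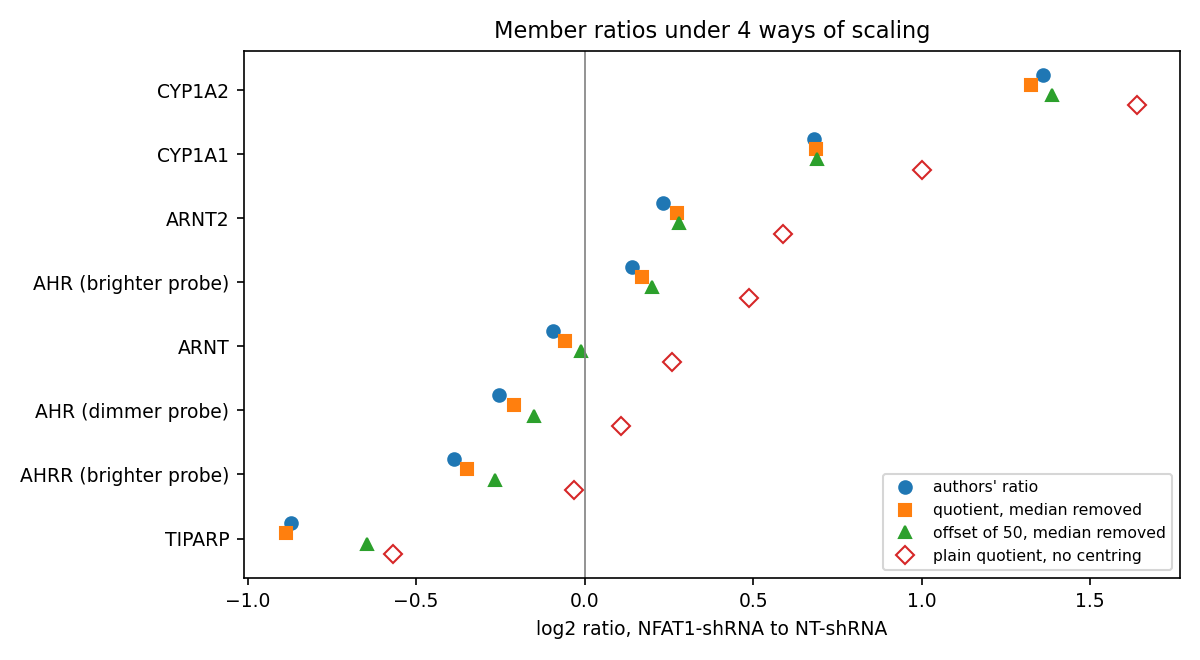
Log2 ratio of KD to NT of the 8 probes under the authors' ratio, the quotient of the intensities with the median of all probes removed, the same after adding 50 to both intensities, and the plain quotient without centring. CYP1A2, CYP1A1 and TIPARP keep their sides of 0 under all 4, while ARNT and the dimmer AHR probe lie above 0 only in the plain quotient, at 0.26 and 0.11.

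Other genes known to respond to AHR lay on both sides of 0. Of 25 such genes, 21 had a probe, 13 were detected in either line, where 39.9% of all genes were, and 14 had a ratio. Of these 2 rose, 1 fell and 11 did not pass, and the median ratio was -0.01, where 7.55% of the 9516 genes with a ratio passed, 3.35% higher and 4.19% lower, and the median was -0.02. SERPINB2, the plasminogen activator inhibitor of keratinocytes and macrophages, read 128.9 ± 18.7 in the KD-labelled line and 29.6 ± 12 in the NT-labelled line, where it was not detected. Against the lowest detected signal of the NT-labelled line SERPINB2 stood 1.73-fold higher, which is not a lower bound. Its adjusted p was 0.0184 from the authors' deposited p-values. IL1B, which encodes interleukin-1 beta, read 100.6 against 26.6 and stood 1.35-fold above the same signal, with an adjusted p of 0.0181 from the authors' deposited p-values. For both genes the interval from the deposited errors included 0, from -0.09 to 2.35 for SERPINB2 and from -0.52 to 2.24 for IL1B. These intervals are centred on the authors' log2 ratios, 1.13 for SERPINB2 and 0.86 for IL1B. The plain log2 quotients of the intensities that carry the errors were higher, 2.12 and 1.92. Whether 0 is included therefore depends on which of the 2 values is taken as the centre. JUN, a subunit of AP-1, fell by 0.51 on the log2 scale in the authors' deposited table (interval -0.72 to -0.30).

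Of the 21 listed genes with a probe, 8 were detected in neither line. Values are given here for 3 of them, which AHR ligands are known to induce beside CYP1A1. Named after their values were seen, NQO1, a quinone reductase, read 5.92 and 1.83 in the KD-labelled and NT-labelled lines, and the aldehyde dehydrogenase ALDH3A1 read 12.6 and 4.14. The P450 gene CYP2S1 read 14.3 and 7.92. None of these 3 was detected in either line, whereas 13 of the 21 listed genes with a probe were, among them the stress-response factor NFE2L2. The 4 genes GSTA1, GSTA2, UGT1A1 and UGT1A6 were named by no probe that names only 1 gene.

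In the cytosolic AHR complex and among its coregulators, 13 of the 14 genes reported had a probe and 10 a ratio. By the authors' deposited p-values after Benjamini-Hochberg adjustment 0 rose, 0 fell and 10 did not pass, with 2 at an unadjusted p under 0.05 and a median of 0.02. Over all genes with a ratio, 7.55% passed and 19.2% had an unadjusted p under 0.05. HSP90AA1, the inducible HSP90 chaperone, did not pass, with 0.63 and 0.44 on its probes by the authors' deposited table, nor did the acetyltransferase EP300, with 0.50 (interval 0.04 to 0.95). NRIP1, a nuclear receptor corepressor, read 808.4 ± 58 against 497.3 ± 58.4 and did not pass either, with 0.38 (interval -0.01 to 0.77) by the authors' deposited table.

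Among tryptophan and kynurenine enzymes, QPRT rose. Of 11 genes, 3 were detected, AADAT, KYNU and QPRT, where 39.9% of all genes were detected in either line. Of 6 with a ratio 1 rose and 5 did not pass, against 7.55% of all genes passing. TDO2, IDO1 and IDO2 at the head of the pathway, and also IL4I1, were named after their values were seen. These 4 genes read at most 30.2 in either line and were detected in neither. QPRT, which takes the pathway's quinolinate towards NAD, read 506.5 ± 27.3 against 93.4 ± 7.64. The authors' deposited table puts QPRT at a log2 ratio of 2.10 (interval 1.83 to 2.38). KYNU, which cleaves kynurenine, did not pass, with 0.48 and 0.29 on its probes by the authors' deposited table, nor did the aminotransferase AADAT, with -0.23. The list's median was 0.16, and 0.48 over the genes detected in at least 1 line.

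P450 enzymes need haem and electrons from reductases. Of 15 genes for these supplies, 14 were detected, where 39.9% of all genes were. All 15 had a ratio, of which 1 rose, 1 fell and 13 did not pass, with a median of 0.05. Of all genes 3.35% rose and 4.19% fell. UROS, a haem synthesis enzyme, read 1887 ± 97.9 against 817.3 ± 104.5, a log2 difference of 0.91 (interval 0.52 to 1.30) by the authors' deposited table. HMOX1, the haem oxygenase that degrades haem, fell by 0.68 on the log2 scale in the authors' deposited table, with an adjusted p of 0.0448. CYB5R3, a cytochrome b5 reductase, had 0.75 (interval 0.15 to 1.34) in the authors' deposited table and did not pass.

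No other cytochrome P450 gene passed. Of 47 such genes with a probe, 9 were detected in either line, where 39.9% of all genes were. A ratio was given for 16, 4 of them above 0 and 12 below, with a median of -0.24. At an unadjusted p under 0.05 of the authors' deposited table there were 3, where 19.2% of all genes met this and 7.55% passed after adjustment. CYP27A1, a sterol hydroxylase, had the largest ratio among the detected, 0.59 (interval 0.12 to 1.06) in the authors' deposited table, with an adjusted p of 0.118. CYP2B6 had -0.38 and the epoxygenase CYP2J2 0.32 in the authors' deposited table.

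**Figure D4:**
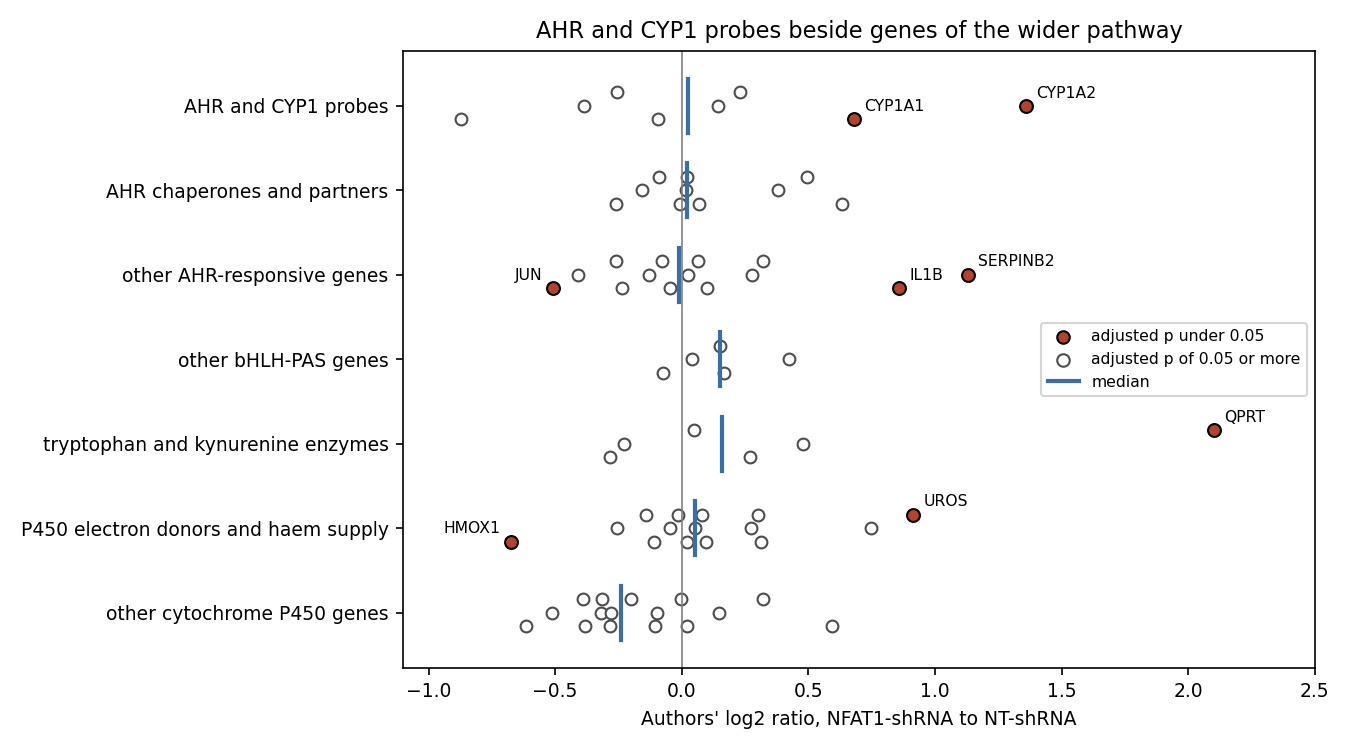
Log2 ratio of KD to NT from the authors' deposited table for the 8 AHR and CYP1 probes and for genes of 6 lists of the wider pathway, each gene at its brightest probe. Filled points are named and have an adjusted p under 0.05, and the vertical bar is the median of the row. Medians run from -0.24 for other P450 genes to 0.16 for tryptophan and kynurenine enzymes, and the passing genes lie on both sides of 0.

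No bHLH-PAS relative of AHR and ARNT passed. Of 15 genes, 4 were detected, where 39.9% of all genes were, and 5 had a ratio. None of the 5 had an unadjusted p under 0.05 in the authors' deposited table, where 19.2% of all genes met this and 7.55% passed after adjustment. NPAS2 had 0.42, the clock factor BMAL1 0.15 and HIF1A, the oxygen-regulated partner of ARNT, -0.07 in the authors' deposited table, and the other HIF1A probe had 0.11. The list's median was 0.15.

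Because CYP1A2 is usually a hepatocyte gene, markers of that and other cell types were read beside it. All 7 melanoma markers were detected, and of these TYR rose (log2 ratio 1.63 in the authors' deposited table). The other 6 did not pass, where 3.35% of all genes rose and 4.19% fell. Of the 7 ratios, 5 lay above 0 and 2 below, with a median of 0.10. Next in size were MITF at its brightest probe, -0.50 (interval -0.94 to -0.06), and S100B, 0.43 (interval 0.03 to 0.83). Another MITF probe had 0.60 (interval -0.35 to 1.55). Of 12 hepatocyte markers 2 were detected, TTR at 97.4 and 106.3 and CYP2E1 at 86.3 and 70.2 in the KD-labelled and NT-labelled lines. Albumin (ALB) read 13.3 and 1.92, APOB 2.65 and -0.54 and SERPINA1 4.99 and 0.90, none of them detected. The summed intensity of the hepatocyte list was 368.5 in the KD-labelled line and 347.7 in the NT-labelled line. Of keratinocyte, leukocyte and fibroblast markers 1 of 3 each was detected, KRT14, CD68 and COL1A2, and of endothelial markers 0 of 2. COL1A2 was detected only in the NT-labelled line, at 82.7, and read 3.34 in the KD-labelled line. The fibroblast marker DCN read 6267 ± 7799 in the KD-labelled line and was not detected. In RNA from whole populations, fewer expressing cells and less RNA per cell cannot be told apart.

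With 1 value per line, a pattern across the lines is a single number, so no gene is named for a pattern like that of CYP1A2. How the authors' p-values account for the spread between replicates is not stated, and few arrays limit the precision of each value.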

How the data were processed

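RNA of 2 transduced A375SM lines, with integrity numbers of 9.3 to 9.9 per the labels, was measured on single-colour arrays. Per the file headers, the authors deposited for each probe and line a detection p-value, a normalized intensity on a linear scale and an error in the same unit, together with their log2 ratio and its p-value. The normalization, the way the 3 replicates were combined, the kind of error and the method behind the p-values are not stated in the sources used here. The deposited series matrix held the same intensities within 1e-06. All columns of values per line were used.

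Of 29187 probes, 25650 name 1 gene and were used; 25400 of these matched a RefSeq gene table (GRCh38.p14) by Entrez number for current symbols. The authors' p-values, taken as two-sided, were adjusted by the Benjamini-Hochberg method over the 11362 such probes with a ratio for AHR and CYP1 probes, and over 9516 genes, each at its brightest probe, for gene lists. Intervals of 95% are centred on the authors' ratio and take the error propagated from both deposited errors as a normal standard error. A probe detected in 1 line only has a fold against the lowest detected signal of the other line, or its own reading there if higher. That signal was 78.3 for KD and 60.4 for NT, and the median shift of 0.30 on the log2 scale was removed. The fold is not a lower bound, because undetected probes can read above that signal and the errors are left out. No test across arrays could be run, because no value per array is in the table used. The adjustment and interval steps were tested on simulated data (Python 3.11.15, pandas 2.3.3, NumPy 2.4.6, SciPy 1.17.1).

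One gene of the lists is not reported here and is left out of their counts. The members and gene lists were chosen with earlier results of these data known. Genes named are all members, NFATC2, up to 3 genes per list with the largest absolute ratio among those detected, and a few picked after a look at the values, as the text says.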

Additional observations from a re-analysis of the deposited data

How the results depend on the processing

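CYP1A2 and CYP1A1 kept their direction and passed the threshold under every scale and p-value tried, with log2 ratios of 1.32 to 1.64 and 0.68 to 1.00. Of 39 values of single member probes under alternatives, 31 kept direction and side. The propagated error and the adjustment over genes reuse the authors' ratio, so direction could not change under them. Under the plain quotient of the intensities, without centring, the dimmer AHR probe was 0.11 and ARNT 0.26 on the log2 scale, turned from below to above 0 by the construction of that scale, the brighter AHR probe and ARNT2 also passed, and 4 member probes and 2649 of all probes passed in place of 2 and 798. TIPARP passed with the median-centred quotient (-0.89), an offset of 50 (-0.65), the propagated error and the adjustment over genes, with adjusted p-values of 0.0209, 0.0221, 0.0265 and 0.0493. In the lists, 1 gene rose among AHR chaperones and partners with the offset of 50 and 1 with the mean of all probes of a gene, in place of 0. Among other AHR-responsive genes 1 rose with the median-centred quotient and 0 with the mean of all probes, and 1 other P450 gene rose with the offset of 50. The cause of these moves was not tested. Of 24 list medians under alternatives, 23 moved by less than the members' median error. The exception was the tryptophan and kynurenine list over detected genes, at 0.48. The detection threshold of 0.05 left the 8 detected member probes as they were. The use of the propagated error for the count over all probes, 898, was chosen after seeing the data. The series matrix gives no detection p-value, so it gave no separate value. No replicate could be left out and no paired analysis was possible because the table holds 1 combined value per line. Dim probes limit what can be said of CYP1B1, NQO1 and ALDH3A1.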
